A study of Homo sapiens with 8 samples.

Results

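The 10 genes described here encode transcription factors of mesenchymal cells: SNAI1, SNAI2, ZEB1 and ZEB2 (zinc finger proteins), TWIST1, TWIST2, SCX and TCF21 (basic helix-loop-helix, or bHLH, proteins), PRRX1 (a paired-type homeobox protein) and RUNX1 (a runt domain protein). Rows of the table were taken by gene symbol, and all 10 were found among the 24598 genes of the table. RNA was measured in CCD-1077Sk, an established line of human skin fibroblasts, 6 h after treatment. The 4 groups of 2 libraries were control cells given the vehicles bovine serum albumin (BSA), citric acid and DMSO, cells given TGFB1 and DMSO, cells given celastrol at 500 nM with BSA and citric acid, and cells given TGFB1 and celastrol at 500 nM. TGFB1 is transforming growth factor beta 1, a cytokine that activates fibroblasts, and celastrol is a plant triterpenoid; the labels used here give no dose of TGFB1. All groups are of this 1 line. Whether 2 libraries of a group are separate cultures is not stated, and the p-values below then reflect the spread among these libraries only, which may be technical.

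SNAI and ZEB proteins bind E-box sequences and repress epithelial genes such as the E-cadherin gene, with the CtBP, histone deacetylase and LSD1 corepressors. TWIST proteins, SCX and TCF21 bind E-boxes as dimers with E proteins, and ID proteins block them by taking up the E proteins. RUNX1 binds DNA with its partner CBFB, and PRRX1 marks dermal and limb fibroblasts. TGFB1 is known as an inducer of several of these factors in epithelial cells, where they drive the epithelial to mesenchymal transition; fibroblasts already carry most of them.

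Promoter sequence from RefSeq (GRCh38.p14) was at hand for 6 of the 10 genes: PRRX1, ZEB2, TWIST2, TCF21, RUNX1 and ZEB1, the last with 7 start sites, which gave 12 windows in all. The windows of 3 genes are shown, each as the 250 bases before a start site, read 5′ to 3′ on the gene's strand. TCF21 rose with celastrol and had its lowest values with TGFB1, while ZEB1 and RUNX1 rose with either agent. Capitals mark E-boxes (CANNTG), the motif that SNAI, ZEB, TWIST and TCF21 proteins bind. The windows are chr6:133888863-133889112 (plus strand) for TCF21, chr10:31318167-31318416 (plus strand) for the most upstream ZEB1 start and chr21:34888700-34888949 (minus strand) for RUNX1. They were picked among the windows free of exons of their own gene, and the starts are those of RefSeq: the nearest transcript start of the gene in GENCODE 29 lies 25 bases downstream for TCF21, 78 for ZEB1 and 9 for RUNX1. The bases just after the start were therefore not found in a GENCODE transcript for any of the 3, and bases 26 to 50 after it were found for TCF21 and RUNX1 but not for this ZEB1 start.
TCF21: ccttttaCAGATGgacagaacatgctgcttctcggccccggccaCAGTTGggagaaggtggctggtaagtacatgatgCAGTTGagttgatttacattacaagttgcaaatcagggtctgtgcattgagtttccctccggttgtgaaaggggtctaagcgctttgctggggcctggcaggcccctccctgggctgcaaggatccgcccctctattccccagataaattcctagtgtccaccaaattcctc
ZEB1: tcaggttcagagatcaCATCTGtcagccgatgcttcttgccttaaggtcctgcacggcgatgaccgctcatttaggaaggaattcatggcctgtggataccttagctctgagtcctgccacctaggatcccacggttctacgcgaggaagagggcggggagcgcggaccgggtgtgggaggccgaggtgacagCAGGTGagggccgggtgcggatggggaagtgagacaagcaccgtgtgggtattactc
RUNX1: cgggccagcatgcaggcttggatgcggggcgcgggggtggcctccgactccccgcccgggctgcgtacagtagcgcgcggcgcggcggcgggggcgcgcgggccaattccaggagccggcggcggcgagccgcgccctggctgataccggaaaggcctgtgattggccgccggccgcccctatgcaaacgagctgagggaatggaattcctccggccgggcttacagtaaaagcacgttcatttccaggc

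The TCF21 window held 3 E-boxes, which begin 243, 206 and 172 bases before the RefSeq start. This ZEB1 window held 2, at 234 and 57 bases, and the nearer one reads CACCTG, the form best known for SNAI and ZEB binding, on the opposite strand. The RUNX1 window held none of the motifs searched. E-boxes are common: 61.8% of the 35116 windows in the RefSeq table held at least 1 CANNTG on either strand, and 17.5% held CACCTG, which is also counted as CANNTG. Both strands were also searched for the heat shock motifs GAANNTTC and TTCNNGAA (5.78% and 6.62% of all windows), the SMAD motifs GTCTAGAC and CAGACA (0.182% and 13.6%), the AP-1 motif TGACTCA, whose other strand reads TGAGTCA (4.2%), and the cyclic AMP response motif TGACGTCA (1.65%). Of these, the windows of the 6 genes held only CAGACA, once, before another ZEB1 start. These matches describe letters in these windows and are not evidence of binding.

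Levels are given as normalized reads, that is, estimated reads divided by 1 size factor per library. Libraries held 20716719 to 42518360 estimated reads assigned to genes, and a count of 0 allows up to 3 reads, or 1.8 to 4.24 normalized reads, a limit that covers counting error only. All 10 genes passed the filter for testing (10 normalized reads or more in 2 or more libraries), SCX only just. Differences are log2 fold changes of value + 1 with their standard error (SE), and folds are taken from them; they were tested with limma over 22866 genes and called at an adjusted p under 0.05; with 2 libraries a group, an exact test of 1 gene could not go below p = 0.333. All 10 defining fibroblast markers were above the limit in every library, with a summed level of 381800 to 674400 normalized reads. Of 18 markers of other skin cells 11 were in the table, with a summed level of 1613 to 2010 without celastrol and 2133 to 2287 with it. Fewer cells of a type and less RNA per cell cannot be told apart in these bulk samples. The TGFB1 response gene CCN2 rose with TGFB1 (2.76) and the heat shock gene HSPA1A with celastrol alone (6.36).

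**Figure D1:**
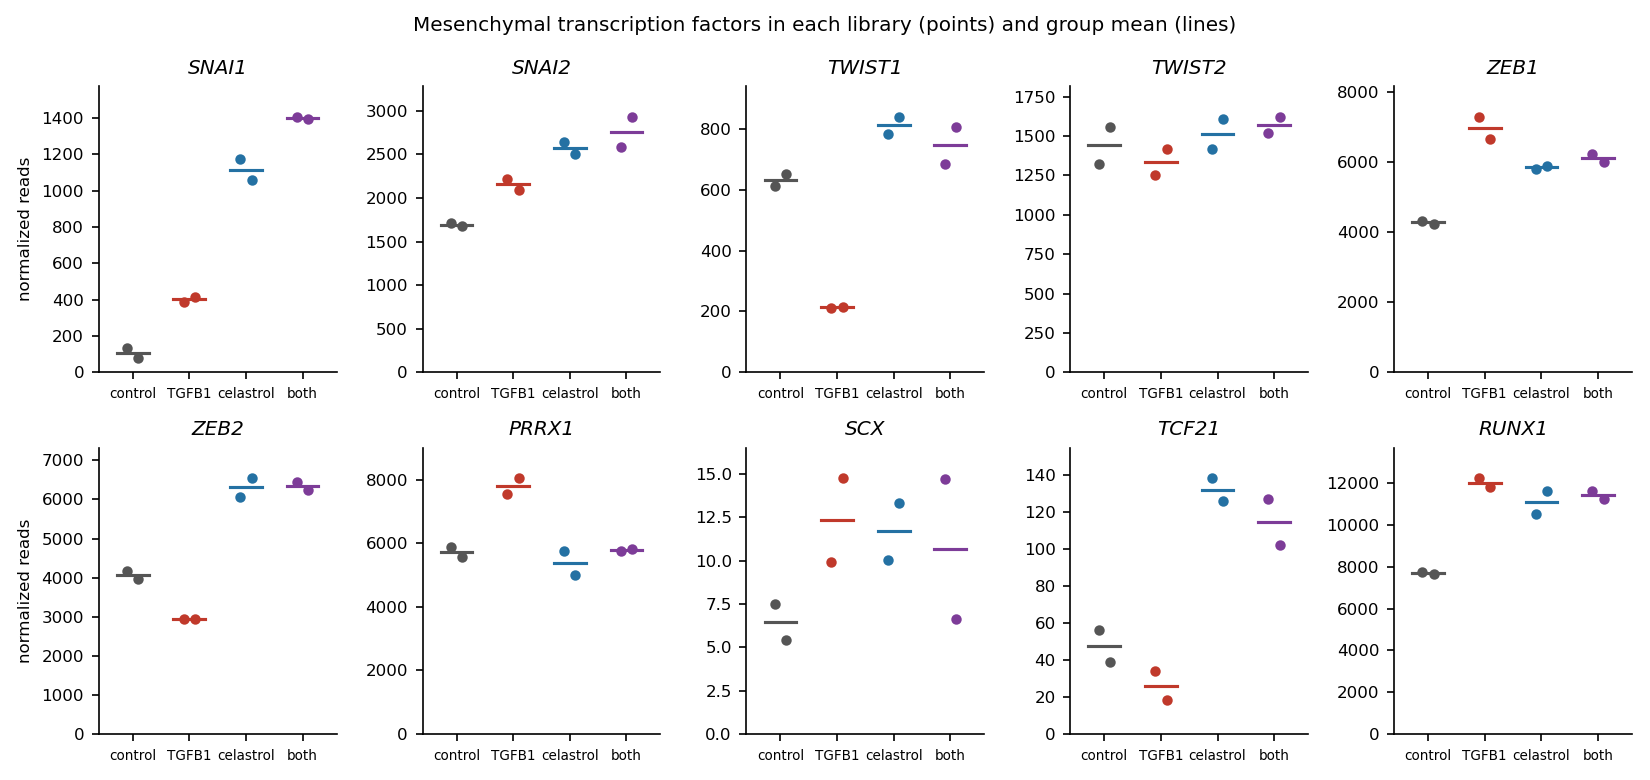
Normalized reads (linear axes from 0) of the 10 transcription factor genes in the 8 libraries, as points, with the group mean as a line; "both" stands for TGFB1 with celastrol. SNAI1 climbs from 78.0 to 134 in control to 1394 to 1406 with both agents, TWIST1 dips only in the TGFB1 libraries (212 and 215), and PRRX1 peaks there (7555 and 8051).

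With TGFB1 alone, SNAI1, SNAI2, ZEB1, PRRX1 and RUNX1 rose and TWIST1 and ZEB2 fell. That is 5 higher and 2 lower of 10, beside 23.5% of all genes tested that were called in either direction (12.8% higher, 10.6% lower). The median log2 fold change of the 10 genes was 0.40, beside 0.00 for all genes tested. With celastrol alone, 7 rose (SNAI1, SNAI2, ZEB1, ZEB2, TWIST1, TCF21 and RUNX1) and 0 fell, beside a background of 55.1% (33.8% higher, 21.3% lower); the medians were 0.57 and 0.08. When celastrol was added to TGFB1, SNAI1, SNAI2, TWIST1, ZEB2 and TCF21 were higher than with TGFB1 alone and ZEB1 and PRRX1 lower. These 5 and 2 of 10 stand beside a background of 63.4% (37.5% higher, 25.9% lower), so the share called, 7 of 10, is near that of all genes. The medians there were 0.29 and 0.12. These counts and their background both depended on the scaling. With every library scaled to a common total, TGFB1 gave 3 higher and 4 lower of the 10 genes, beside 1417 higher and 5399 lower of all 22866 genes tested. Celastrol then gave 7 and 0, beside 7286 and 6068, and celastrol on top of TGFB1 gave 6 and 1, beside 9809 and 4183. With libraries centred on their median gene, TGFB1 gave 5 and 2, beside 4778 and 1775, celastrol 6 and 1, beside 6751 and 7470, and celastrol on top of TGFB1 4 and 3, beside 6956 and 9094. TGFB1 against control and celastrol against control share their control libraries, and the values of each are given side by side below.

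**Figure D2:**
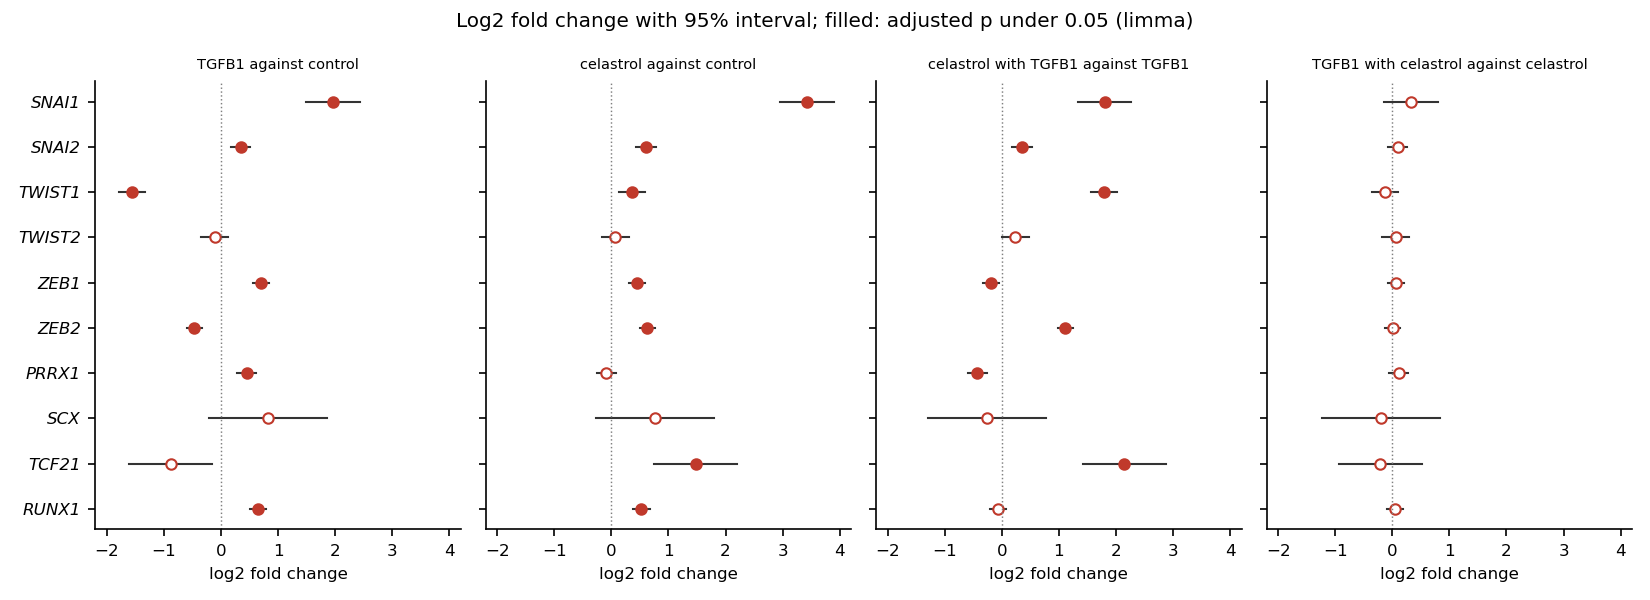
Log2 fold change (x axis) of each gene in 4 comparisons, with its 95% interval as a line; filled points have an adjusted p under 0.05 by limma. The first 3 panels hold 7 filled points each and the panel of TGFB1 with celastrol against celastrol holds 0.

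SNAI1 (Snail; chromosome 20, 49982980 to 49988886, plus strand) had the widest range of the 10 genes on the log2 scale. Control libraries had 134 and 78.0 normalized reads. TGFB1 libraries had 389.8 and 414, celastrol libraries 1171 and 1057, and libraries of both agents 1406 and 1394. The 4 groups did not overlap, in that order. TGFB1 raised it 3.9-fold (1.96, SE 0.21, adjusted p = 0.000268), and celastrol alone 10.8-fold (3.43, SE 0.21, adjusted p = 4.01e-06). Celastrol on top of TGFB1 raised it by a further 1.80 (SE 0.21, adjusted p = 9.27e-05), which is 3.48-fold. The step from celastrol alone to both agents was 0.33 (SE 0.21, 95% interval -0.14 to 0.80), which did not pass the test. The TGFB1 call for SNAI1 was lost when only the libraries compared were fitted (adjusted p = 0.0746).

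SNAI2 (Slug; chromosome 8, 48917598 to 48921740, minus strand), the close relative of SNAI1, had higher values in the control libraries and smaller log2 differences. Its values were 1708 and 1676 in control, 2219 and 2093 with TGFB1, 2648 and 2503 with celastrol alone, and 2583 and 2933 with both. The control libraries were lowest and the celastrol groups highest, the latter overlapping each other. The rise with TGFB1 was 0.35 (SE 0.07, adjusted p = 0.0101), that with celastrol 0.61 (SE 0.07, adjusted p = 0.000172), and that of celastrol on top of TGFB1 0.35 (SE 0.07, adjusted p = 0.00283). The TGFB1 call was lost with every library scaled to a common total (0.12, adjusted p = 0.274), with no variance trend (adjusted p = 0.0656), without control replicate 2 (adjusted p = 0.0639) and with only the libraries compared (adjusted p = 0.051). The call on top of TGFB1 was lost when libraries were centred on their median gene (0.06, adjusted p = 0.4704).

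ZEB1 (chromosome 10, 31318495 to 31529814, plus strand) and ZEB2 (chromosome 2, 144364364 to 144521057, minus strand) are related zinc finger repressors, and TGFB1 moved them in opposite directions. ZEB1 was at 4339 and 4234 in control, 7306 and 6677 with TGFB1, 5807 and 5907 with celastrol alone, and 6242 and 6008 with both. All other libraries lay above control, and the TGFB1 libraries were highest. ZEB2 was at 4173 and 3973 in control, 2950.5 and 2929 with TGFB1, 6067 and 6544 with celastrol alone, and 6436 and 6253 with both. Here the TGFB1 libraries were lowest and the 4 celastrol libraries highest.

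The TGFB1 difference was 0.70 for ZEB1 (SE 0.06, adjusted p = 7.98e-05) and -0.47 for ZEB2 (SE 0.06, adjusted p = 0.000661). Celastrol alone raised both, ZEB1 by 0.45 (SE 0.06, adjusted p = 0.0002699) and ZEB2 by 0.63 (SE 0.06, adjusted p = 3.7e-05). On top of TGFB1, celastrol raised ZEB2 by 1.11 (SE 0.06, adjusted p = 1.56e-06), a 2.16-fold difference. ZEB1 was lower there by a small margin (-0.19, SE 0.06, adjusted p = 0.0209). That last call was lost under 5 alternatives: scaling to a common total (-0.03, adjusted p = 0.668), no variance trend (adjusted p = 0.0954), leaving out TGFB1 replicate 1 (adjusted p = 0.1103) or the second library of both agents (adjusted p = 0.108), and fitting only the libraries compared (adjusted p = 0.0674).

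Antisense genes share exon sequence with both. ZEB1-AS1 overlaps ZEB1 exons by 366 bases and ZEB2-AS1 overlaps ZEB2 exons by 1299 bases in GENCODE 29; the use of strand in counting is not stated, so reads from the shared bases cannot be told apart. ZEB1-AS1 was at 223 and 198 in control, 186 and 222 with TGFB1, 336 and 322 with celastrol alone, and 365 and 317 with both. It was higher in every celastrol library, by 0.65 without TGFB1 (SE 0.13, adjusted p = 0.00334) and 0.74 with it (SE 0.13, adjusted p = 0.00132). Its TGFB1 difference was -0.04 (SE 0.13, adjusted p = 0.879), beside 0.70 for ZEB1. ZEB2-AS1, named here after its values were seen, had 0 to 2.46 normalized reads in the 4 libraries without celastrol and 35.2 to 50.5 in the 4 with it, far below ZEB2 itself.

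TWIST1 (chromosome 7, 19020991 to 19117636, minus strand), a bHLH factor of neural crest and dermal mesenchyme, had its lowest values with TGFB1. It was at 610.3 and 651 in control, 212 and 215 with TGFB1, 782 and 839 with celastrol alone, and 686 and 804 with both. The TGFB1 libraries lay far below every other library, and the groups given celastrol overlapped. TGFB1 lowered it 2.94-fold (-1.56, SE 0.10, adjusted p = 1.65e-05). With celastrol on top of TGFB1 it was 3.47-fold higher (1.79, SE 0.10, adjusted p = 1.92e-06), and both libraries then lay above both control libraries. Celastrol alone raised it by 0.36 (SE 0.10, adjusted p = 0.0127), a call lost with median centring (0.19, adjusted p = 0.135), without control replicate 1 (adjusted p = 0.0825) and without celastrol replicate 2 (adjusted p = 0.0821). An antisense gene shares 141 exon bases with TWIST1.

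TWIST2 (Dermo-1; chromosome 2, 238848032 to 238910534, plus strand) is the other TWIST factor, with a known role in the dermis. Its values were 1323 and 1559.5 in control, 1253 and 1418 with TGFB1, 1415 and 1611 with celastrol alone, and 1517 and 1623 with both. All groups overlapped at least 1 other, and no comparison was called in the main fit. That fit does not pair libraries by number, and in every group the second library was the higher one. The TGFB1 difference was -0.11 (SE 0.10, 95% interval -0.35 to 0.13), beside -1.56 for TWIST1. Celastrol on top of TGFB1 gave 0.24 (SE 0.10, adjusted p = 0.0773), a difference that was called with a common total (0.39, adjusted p = 0.0102), with the replicate block (adjusted p = 0.00589) and without TGFB1 replicate 2 (0.32, adjusted p = 0.0498). With median centring its sign turned (-0.05). With a common total the TGFB1 difference was also called (-0.33, adjusted p = 0.0417), while median centring turned its sign (0.01).

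TCF21 (chromosome 6, 133889113 to 133895553, plus strand), a bHLH factor of fibroblast precursors in heart, kidney and lung, was low in these cells. Its values were 56.3 and 39.0 in control, 33.9 and 18.4 with TGFB1, 138 and 126 with celastrol alone, and 127 and 102 with both, from 15 to 181 reads in a library. The 4 celastrol libraries lay above the other 4, and the TGFB1 libraries below control. In every group the first library was the higher one. Celastrol raised it 2.78-fold alone (1.47, SE 0.32, adjusted p = 0.00423) and 4.41-fold on top of TGFB1 (2.14, SE 0.32, adjusted p = 0.00042). The TGFB1 difference was -0.88 (SE 0.32, 95% interval -1.61 to -0.15, adjusted p = 0.0827) and was not called. It was called with a common total (-1.10, adjusted p = 0.032), with the replicate block (adjusted p = 0.0262) and without TGFB1 replicate 1 (-1.30, adjusted p = 0.0185).

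TARID, a noncoding gene on the other strand that shares 1383 exon bases with TCF21, had its high values in the same libraries. It was at 3.75 and 4.80 in control, 0 and 3.69 with TGFB1, 54.9 and 43.6 with celastrol alone, and 51.9 and 62.7 with both. It was higher with celastrol both without TGFB1 (adjusted p = 0.00257) and with it (adjusted p = 0.000234). Libraries without celastrol held 0 to 8 TARID reads, so no fold is given. Reads from the shared bases cannot be assigned to either gene here. DNM3OS, a noncoding host gene of microRNAs that TWIST1 is known to induce, rose by 0.95 with TGFB1 (SE 0.06, adjusted p = 1.31e-05), where TWIST1 fell, and by 0.96 with celastrol (SE 0.06, adjusted p = 3.67e-06). Any effect of TWIST1 on DNM3OS was not tested.

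SCX (scleraxis, a bHLH factor of tendon; chromosome 8, 144266453 to 144268481, plus strand) was near the limit of detection. It had 7.50 and 5.40 normalized reads in control, 9.89 and 14.7 with TGFB1, 10.0 and 13.3 with celastrol alone, and 14.7 and 6.60 with both, from 6 to 21 reads in a library. The library values of TGFB1 and celastrol lay above control, and those of both agents spanned nearly the whole range. No comparison was called; the TGFB1 difference was 0.83 (SE 0.45, 95% interval -0.21 to 1.86). That interval holds 0 and also the TGFB1 difference of ZEB1 (0.70).

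PRRX1 (chromosome 1, 170662728 to 170739421, plus strand) was at 5874 and 5558 in control, 7555 and 8051 with TGFB1, 5754 and 5004 with celastrol alone, and 5763 and 5826 with both. The TGFB1 libraries stood above all others, and the other 3 groups lay close together. TGFB1 raised it by 0.45 (SE 0.07, adjusted p = 0.00321), and celastrol on top of TGFB1 lowered it by nearly the same amount (-0.43, SE 0.07, adjusted p = 0.00102). Celastrol alone gave -0.09 (SE 0.07, 95% interval -0.26 to 0.08), which was called only with median centring (-0.26, adjusted p = 0.0101). The TGFB1 call was lost with a common total (0.22, adjusted p = 0.0571) and with only the libraries compared (adjusted p = 0.053).

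RUNX1 (chromosome 21, 34787801 to 36004667, minus strand) was at 7743 and 7629.9 in control, 12238 and 11794 with TGFB1, 10546 and 11636 with celastrol alone, and 11627 and 11252 with both. Every treated library lay above control, and those with celastrol overlapped with each other. It rose 1.56-fold with TGFB1 (0.64, SE 0.06, adjusted p = 0.000161) and 1.44-fold with celastrol (0.53, SE 0.06, adjusted p = 0.000137). Celastrol on top of TGFB1 gave -0.07 (SE 0.06, 95% interval -0.21 to 0.07). That difference was called lower with median centring (-0.36, adjusted p = 0.00113) and turned positive with a common total (0.09).

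The remaining comparison asked what TGFB1 did when celastrol was present. None of the 10 genes was called (0 also at an unadjusted p under 0.05), and limma called 2 of all genes tested (0.00875%; 0.00437% higher and 0.00437% lower), with 868 at an unadjusted p under 0.05. The log2 differences ran from -0.21 (TCF21) to 0.33 (SNAI1), and the widest interval among them was that of SCX, -1.24 to 0.83. ZEB1 had 0.06 (95% interval -0.07 to 0.20), ZEB2 0.01 (-0.12 to 0.14), RUNX1 0.05 (-0.09 to 0.19), TWIST1 -0.13 (-0.35 to 0.10) and PRRX1 0.11 (-0.06 to 0.28). The intervals of these genes, SNAI1 (-0.14 to 0.80) and SNAI2 (-0.07 to 0.26) leave out the TGFB1 point estimate of the same gene without celastrol. Those of TWIST2 (-0.18 to 0.29), TCF21 (-0.94 to 0.52) and SCX hold it. That estimate has an error of its own, so this is a description and not a test of a difference. Without celastrol the TGFB1 intervals were 0.18 to 0.52 for SNAI2 and 0.28 to 0.62 for PRRX1, which overlap those given here. The interaction below takes both errors into account and called neither of these 2 genes in the main fit.

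**Figure D3:**
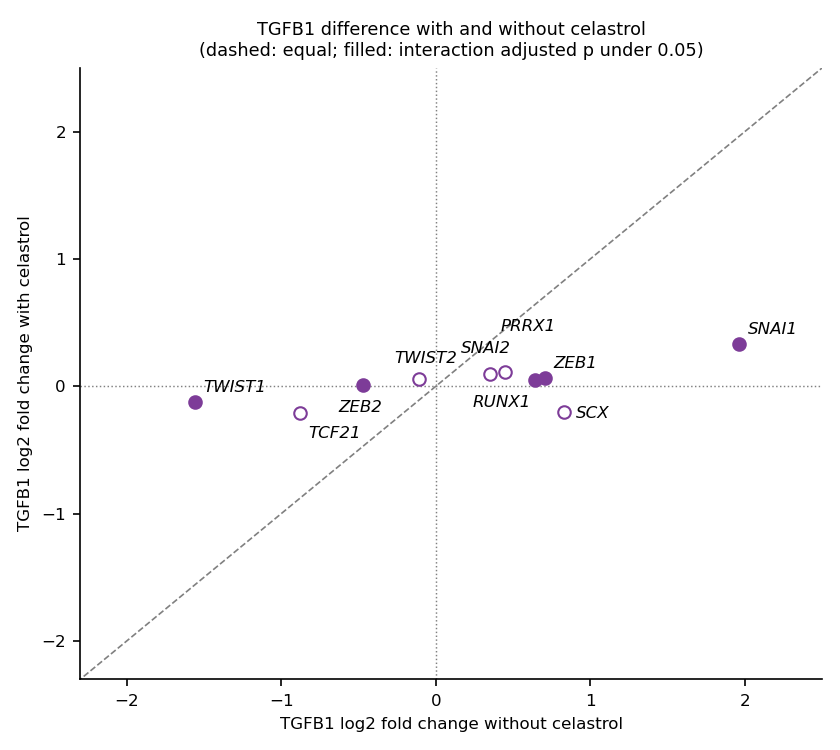
Log2 fold change made by TGFB1 with celastrol (y axis) against that without celastrol (x axis) for the 10 genes; the dashed line marks equal differences and filled points have an interaction adjusted p under 0.05 by limma. Points spread from -1.56 to 1.96 along x and from -0.21 to 0.33 along y.

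The interaction tests whether the TGFB1 difference depends on celastrol, and 5 of the 10 genes passed (2 higher, 3 lower), beside 11.3% of all genes tested (4.36% higher, 6.89% lower). The TGFB1 log2 difference was lower with celastrol for SNAI1 (-1.63, SE 0.29, adjusted p = 0.00915), ZEB1 (-0.64, SE 0.08, adjusted p = 0.002003) and RUNX1 (-0.60, SE 0.09, adjusted p = 0.00331). For SNAI1 this holds on the log2 scale only. Its group means rose from 106 to 402 normalized reads without celastrol and from 1114 to 1400 with it, rises of similar size. The log2 difference was higher, that is, less negative, for TWIST1 (1.43, SE 0.14, adjusted p = 0.000471) and ZEB2 (0.48, SE 0.08, adjusted p = 0.0073). PRRX1 had -0.34 (adjusted p = 0.0786) and SNAI2 -0.25 (adjusted p = 0.168), and TCF21, SCX and TWIST2 had adjusted p-values of 0.405, 0.362 and 0.543. SNAI1, ZEB1 and RUNX1 are genes that TGFB1 and celastrol each raised alone, while TWIST1 and ZEB2 are genes that TGFB1 lowered and celastrol raised.

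Several interaction calls depended on the fit. With no variance trend, SNAI1 (adjusted p = 0.0649), RUNX1 (adjusted p = 0.053) and ZEB2 (adjusted p = 0.078) were lost, which left TWIST1 and ZEB1. SNAI1 was also lost without either celastrol library or either library of both agents (adjusted p from 0.051 to 0.0682). PRRX1 was called with median centring (-0.46, adjusted p = 0.0159), with the replicate block (adjusted p = 0.0424) and without celastrol replicate 2 (adjusted p = 0.0467).

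Levels of different genes can be compared only per length, here as normalized reads per kilobase of the union of exons in GENCODE 29, which understates genes with many isoforms. In control cells the group means ran in the order TWIST2 (768), PRRX1 (693), SNAI2 (499), ZEB1 (495), RUNX1 (494), TWIST1 (310.0), ZEB2 (163), SNAI1 (62.8), TCF21 (10.5) and SCX (6.46). TWIST2 and PRRX1 overlapped between libraries (705 to 830.0 and 674 to 712), and so did SNAI2, ZEB1 and RUNX1 (494 to 504, 489 to 502 and 490.0 to 497). With TGFB1 the highest level was that of PRRX1 (946), above ZEB1 (808) and RUNX1 (772), and TWIST1 had dropped to 105, below SNAI1 (238) and ZEB2 (117). With both agents SNAI1 stood at 831 per kilobase, beside TWIST2 (836) and SNAI2 (813), whose library ranges overlap its own.

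The genes whose profile over the 8 libraries was nearest to each factor were found by the root mean square difference of log2 values after centring, among 12117 genes. TWIST1 was nearest to OSR2, another mesenchymal transcription factor (0.09), and ZEB2 to RUNX1T1, a corepressor of the RUNX family list (0.05). ZEB1 was nearest to PSME4 (0.03), RUNX1 to ETS1 (0.05), SNAI1 to KLF10 (0.23), a gene induced early by TGFB, and to CSRNP1 (0.24) and ANKRD1 (0.25). TCF21 was nearest to LRRC75A (0.16), PRRX1 to DENR (0.05), SNAI2 to RNF11 (0.06) and TWIST2 to PLEKHM1 (0.04). The nearest gene to SCX, CCDC144A (0.23), rests on few SCX reads. These are descriptions of 8 libraries in 4 treatment groups, with no test.

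The partners and inhibitors of the bHLH factors were measured too. Of 7 E protein and ID genes, TGFB1 raised 3 and lowered 3, beside 23.5% of all genes tested that were called in either direction. Celastrol raised 3 and lowered 2 (background 55.1%). On top of TGFB1, celastrol raised 5 and lowered 2 (background 63.4%). ID1, an inhibitor that BMP signals induce, fell with TGFB1 (-1.18, SE 0.13, adjusted p = 0.000348) and with celastrol (-0.70, SE 0.13, adjusted p = 0.00179). ID2 was at 1177 and 944 in control, 804 and 665 with TGFB1, 3086 and 3395 with celastrol alone, and 3129.6 and 3829 with both. It fell with TGFB1 (-0.53, adjusted p = 0.0269) and rose with celastrol on top of TGFB1 (2.24, SE 0.14, adjusted p = 3.54e-06), the same directions as TWIST1. TCF12, an E protein partner of TWIST1, rose with TGFB1 (0.35, adjusted p = 0.0024) and with celastrol (0.56, adjusted p = 5.38e-05), and ID4 rose with either agent (0.76 and 1.92, adjusted p = 0.00706 and 1.47e-05).

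In the RUNX list, TGFB1 raised 1 and lowered 2 of 5 genes tested, beside 23.5% of all genes called in either direction. Celastrol raised 2 and lowered 1 (background 55.1%). On top of TGFB1, celastrol raised 2 and lowered 2 (background 63.4%). RUNX2, the bone factor, fell with TGFB1 (-0.74, SE 0.07, adjusted p = 0.000177), whereas RUNX1 rose, and celastrol on top of TGFB1 raised RUNX2 by 1.78 (SE 0.07, adjusted p = 5.15e-07). CBFB, the shared partner, rose with TGFB1 (0.65, SE 0.08, adjusted p = 0.000813) and was lower with celastrol on top (-0.67, SE 0.08, adjusted p = 0.000152). RUNX1T1 fell with TGFB1 (-0.45, adjusted p = 0.0014) and was higher with celastrol on top (1.20, adjusted p = 1.63e-06).

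Of 28 other mesenchymal and fibroblast transcription factors tested, 11 rose and 7 fell with TGFB1, beside 23.5% of all genes called in either direction. With celastrol, 20 rose and 3 fell (background 55.1%). With celastrol on top of TGFB1, the 28 factors had 18 higher and 7 lower (background 63.4%). Their median log2 fold changes were -0.06, 0.90 and 1.05, beside 0.00, 0.08 and 0.12 for all genes tested. HMGA2, a chromatin protein, was at 5407 and 5239 in control, 12894 and 12943 with TGFB1, 3419.6 and 3540.0 with celastrol alone, and 3633 and 3748 with both. It rose with TGFB1 (1.28, adjusted p = 1.54e-06) and was lower with celastrol on top (-1.81, adjusted p = 1.3e-07). Both are the directions of PRRX1 and ZEB1. With celastrol alone HMGA2 was lower (-0.61, adjusted p = 2.2e-05), while ZEB1 was higher (0.45) and PRRX1 was not called. The hedgehog effectors moved apart: GLI2 rose with TGFB1 (1.18, adjusted p = 1.27e-05) and GLI3 fell (-1.23, adjusted p = 9.08e-06), and with celastrol on top GLI2 was lower (-1.86, adjusted p = 3.9e-07) and GLI3 higher (1.52, adjusted p = 8.06e-07). SOX9 rose with TGFB1 (1.14, adjusted p = 1.45e-05) and more with celastrol (2.12, adjusted p = 2.61e-07), as SNAI1 did.

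Among 20 genes for corepressors and for proteins that set the stability of SNAI proteins, TGFB1 raised 3 and lowered 3. Over all genes, 23.5% were called in either direction. Celastrol raised 8 and lowered 5 of the 20 genes (background 55.1%), so the share called is near that of all genes. On top of TGFB1, celastrol raised 9 and lowered 8 (background 63.4%). FBXL14, a ubiquitin ligase component known to target SNAI and TWIST proteins, was at 97.6 and 97.2 in control, 70.6 and 68.8 with TGFB1, 759.8 and 763 with celastrol alone, and 684 and 569 with both. It rose by 2.95 with celastrol (SE 0.12, adjusted p = 6.49e-07) and by 3.14 on top of TGFB1 (SE 0.12, adjusted p = 4.35e-07). LATS2 (1.49, adjusted p = 4.37e-06), FBXW7 (1.17, adjusted p = 2.73e-06) and COPS2 (0.82, adjusted p = 1.4e-05) also rose with celastrol. Protein levels were not measured.

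Of 19 mesenchymal target genes tested, TGFB1 raised 10 and lowered 0, beside 12.8% and 10.6% of all genes. Celastrol raised 3 and lowered 1, beside 33.8% and 21.3%. On top of TGFB1, celastrol raised 1 and lowered 12, beside 37.5% and 25.9%. CDH2 (N-cadherin) was at 19804 and 16986 in control, 36778 and 36305 with TGFB1, 16621 and 17318 with celastrol alone, and 16732 and 15932 with both. It rose with TGFB1 (0.99, adjusted p = 5.31e-05) and was lower with celastrol on top (-1.16, adjusted p = 5.13e-06), in libraries where SNAI1 was at its highest. These are RNA levels, and any effect of SNAI1 on CDH2 was not tested. FN1 (fibronectin) rose by 1.38 (adjusted p = 9.85e-05) and was lower by the same contrast as CDH2 (-1.60, adjusted p = 9.51e-06), as were TNC (1.06 and -1.06, adjusted p = 3.34e-05 and 7.15e-06) and SPARC (0.61 and -0.95, adjusted p = 0.00097 and 1.73e-05).

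Of 17 epithelial genes tested, which SNAI and ZEB factors are known to repress, TGFB1 raised 3 and lowered 3. Over all genes, 23.5% were called in either direction. Celastrol raised 5 and lowered 3 of the 17 genes (background 55.1%). On top of TGFB1, celastrol raised 8 and lowered 4 (background 63.4%). KRT18 and DSP, which encode a keratin and desmoplakin, rose with TGFB1 (1.79 and 1.76, adjusted p = 1.83e-06 and 1.81e-06). They were lower with celastrol on top (-2.31 and -1.60, adjusted p = 1.8e-07 and 8.28e-07). CLDN4 was the other gene that TGFB1 raised (2.61, adjusted p = 0.000174). TGFB1 lowered KRT19 (-0.71, adjusted p = 0.0125), OCLN (-0.53, adjusted p = 0.0269) and PATJ (-0.36, adjusted p = 0.00614), named after their values were seen. SNAI1 and ZEB1 rose in that comparison, in which the list was split. Any effect of SNAI1 or ZEB1 on these genes was not tested. ST14, which encodes the protease matriptase, held 0 to 1.23 normalized reads without celastrol and 217 to 274 with it. CDH1 (E-cadherin), named after its values were seen, stayed low, at 1.25 and 1.80 in control, 0 and 0 with TGFB1, 13.9 and 8.48 with celastrol alone, and 12.6 and 3.30 with both. It was higher with celastrol alone (adjusted p = 0.00918) and on top of TGFB1 (adjusted p = 0.00185), from 18 reads or fewer in a library. MIR200CHG, the host of microRNAs that target ZEB1 and ZEB2, also named after its values were seen, was at 0 in the 4 libraries without celastrol and at 7.27 to 12.4 in the 4 with it, from 6 to 16 reads. Of the 11 markers of other skin cells, 5 rose with celastrol alone and 4 with celastrol on top of TGFB1, beside 33.8% and 37.5% of all genes. In each library without celastrol 1 to 3 of these markers were at 0, and in each library with it 0 were. The endothelial marker PECAM1 had 0 to 0.60 normalized reads without celastrol and 46.4 to 72.9 with it, and the melanocyte marker MLANA 0 to 1.23 and 84.8 to 124. Other markers of the same cell types did not all follow. VWF, also endothelial, rose with celastrol alone (3.11, limma adjusted p = 6.41e-05). PMEL, also of melanocytes, was not called (0.44, limma adjusted p = 0.4405), nor were KRT10, CD68, ACTG2 and DES. CDH5, TYR and DCT were not among the genes measured. All libraries are of 1 fibroblast line, and whether these reads came from the fibroblasts or from other cells was not tested.

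**Figure D4:**
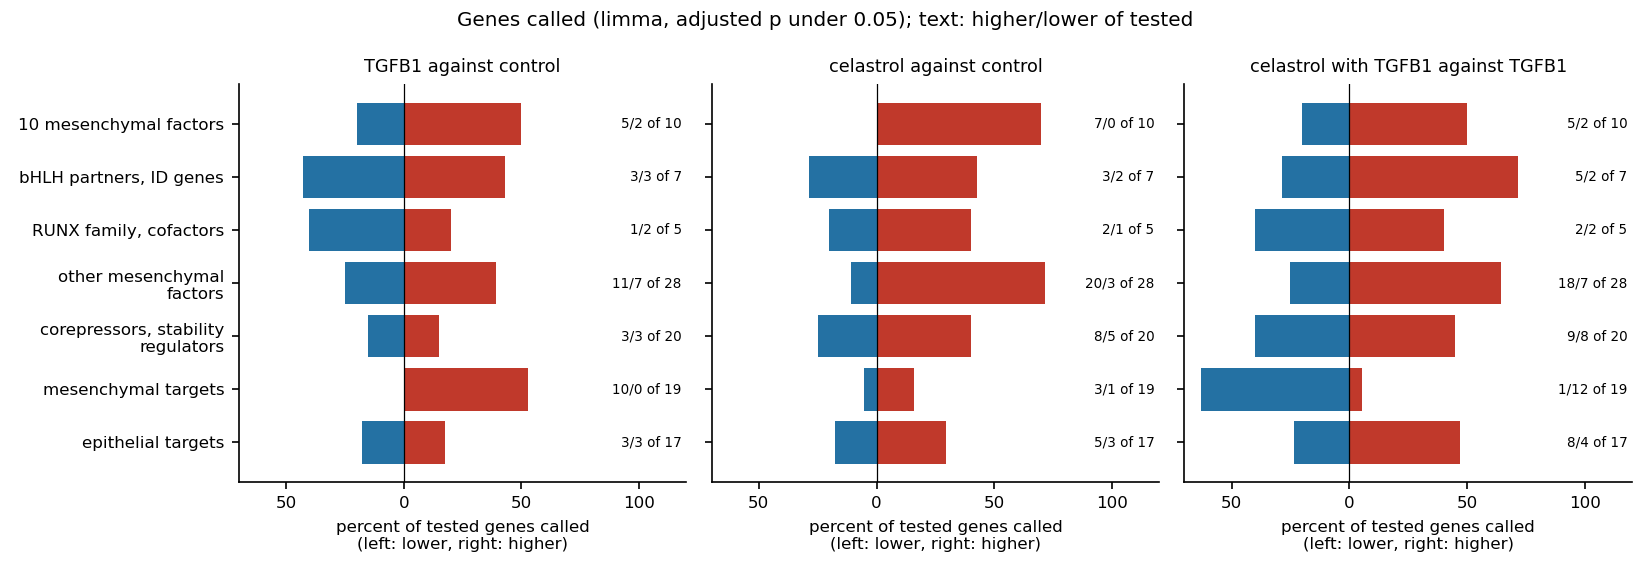
Percent of the tested genes of each list called higher (red, to the right) or lower (blue, to the left) by limma in 3 comparisons, with the counts written at the right. The mesenchymal targets have 10 higher and 0 lower with TGFB1 and 1 higher and 12 lower with celastrol on top of TGFB1. The 10 transcription factors have 5 and 2 in both, but not the same genes. TWIST1 and ZEB2 are lower with TGFB1 and higher with celastrol on top, and ZEB1 and PRRX1 are the reverse. Over all genes, 12.8% are higher and 10.6% lower with TGFB1, and 37.5% and 25.9% with celastrol on top.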

How the data were processed

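RNA from 8 libraries of CCD-1077Sk cells was sequenced, and the deposited table holds 1 normalized signal per gene and library. The submitters' processing notes name STAR 2.7.3a, Partek 10.0.22, DESeq2 and hg38. What each tool did, the annotation, how reads were counted, whether strand was used and any filter are not stated there. The deposited signal is read here as estimated reads divided by 1 size factor per library. Whole reads, within 0.02 reads, were recovered for 74.09% to 79.35% of values under 1000, too few for a count model.

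Values were analysed as log2(value + 1), computed here from the deposited signal, which shrinks the fold change of low genes. A limma 3.58.1 model (R 4.3.3) with 1 mean per group and a variance trend was fitted to all 8 libraries, with 4 residual degrees of freedom, two-sided tests and Benjamini-Hochberg adjustment over 22866 genes within each of 5 comparisons. The fit was tested on simulated data with normal noise, for TGFB1 against control. It recovered 27 of 100 genes changed by a log2 of 0.5 and 67 of 100 changed by 1, with 6 false calls. Only these genes were changed among 22866, a much smaller share than the 23.5% called for TGFB1 in the data. The adjustment is then stricter than in the data, so these rates may understate recovery there. A difference that was not called may still be present. Promoter windows came from RefSeq, and exon lengths and overlaps from GENCODE 29.

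The 10 factors and the 10 other lists were chosen with earlier results of these data known, so their counts are descriptions. All 10 factors are named. From each other list, up to 4 genes with the smallest p among those reaching 50 in a group mean could be named, plus markers and treatment checks. Likeness used the 3 nearest genes with a mean of at least 50. Alternatives covered the pseudocount, the filter, the scaling, the variance trend, the replicate block, the libraries fitted and each library left out.

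The fibroblast marker list had 3 of 10 genes higher with TGFB1, and the noncoding list 1 of 5, beside 12.8% of all genes. Of the 6 treatment check genes, 4 rose with TGFB1 and 4 with celastrol, beside 12.8% and 33.8% of all genes. They did not all separate the 2 agents. SMAD7 rose with TGFB1 (1.71) and with celastrol (1.88), and HMOX1 rose with TGFB1 (0.62) and with celastrol (5.91).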

Additional observations from a re-analysis of the deposited data

Results flagged for a closer look

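On the log2 scale the TGFB1 difference depended on celastrol, by the interaction test of limma, for 5 of the 10 transcription factors. The log2 interaction was -1.63 for SNAI1 (adjusted p = 0.00915), -0.64 for ZEB1 (adjusted p = 0.002003), -0.60 for RUNX1 (adjusted p = 0.00331), 1.43 for TWIST1 (adjusted p = 0.000471) and 0.48 for ZEB2 (adjusted p = 0.0073). In each case the TGFB1 libraries stood apart from control on the same side in both libraries. The TGFB1 log2 difference with celastrol was between -0.13 (TWIST1) and 0.33 (SNAI1) for these genes. In normalized reads, the SNAI1 group means rose from 106 to 402 without celastrol and from 1114 to 1400 with it, rises of similar size. With no variance trend in the fit, SNAI1, RUNX1 and ZEB2 were no longer called.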

How the results depend on the processing

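Of 835 recomputed differences of single factors, 784 kept their direction and their side of the threshold, 23 lost a call, 12 gained one and 16 changed sign, and no called difference changed sign. Of 26 called differences, 17 were called under every alternative run. The sign changes were all near 0 or in SCX: RUNX1 with celastrol on top of TGFB1 at a common total (0.0866); TWIST2 with celastrol at a common total (-0.0083) and with median centring (-0.0989), with TGFB1 (0.0123) and with celastrol on top of TGFB1 (-0.053) with median centring. Leaving out 1 library at a time gave -0.191 to 0.0101 for PRRX1 with celastrol, -0.226 to 0.0106 for TWIST2 with TGFB1, -0.0467 to 0.1903 for TWIST2 with celastrol and -0.784 to 0.264 for SCX with celastrol on top of TGFB1. For TGFB1 in the presence of celastrol it gave -0.0248 to 0.117 (RUNX1), -0.726 to 0.322 (SCX), -0.0376 to 0.149 (TWIST2) and -0.0447 to 0.0643 (ZEB2). Fitting only the libraries compared left 4 of 7 factor calls and 1684 of 5364 calls over all genes for TGFB1, and with no variance trend 2 of 5 factor interactions and 1245 of 2573 over all genes remained past the threshold. Leaving out 1 library gave 3248 to 4757 calls over all genes for TGFB1, and 1189 to 2715 for the interaction. For TGFB1 in the presence of celastrol, the 2 calls over all genes became 0 with a pseudocount of 0.5, no filter, median centring or any library left out, and 1 with a pseudocount of 5, a filter of 50, no variance trend, the replicate block or only the libraries compared. Scaling moved the median of all genes by -0.21 (common total) and 0.12 (median centring) for TGFB1, from 0.12 to 0.28 and -0.17 for celastrol on top of TGFB1, from 0.08 to 0.00 and -0.09 for celastrol and from 0.01 to 0.22 and -0.11 for the interaction. The share of higher calls over all genes went from 54.8% to 20.8% and 72.9% for TGFB1. For celastrol on top of TGFB1 it went from 59.1% to 70.1% and 43.3%, for celastrol from 61.4% to 54.6% and 47.5%, and for the interaction from 38.7% to 75.5% and 22.2%. The filter of 50 leaves SCX untested. Across genes, the replicate differences were positively but weakly correlated between every pair of groups (r of 0.171 to 0.233). Some genes kept the same direction in every group. Replicate 1 was the higher one for ACTG2 (control: 498 against 251), and replicate 2 for POSTN (control: 595 against 1234). PRRX1 and RUNX1 did not keep theirs. The main fit ignores any such shared difference, which the replicate block takes into account. However, 1 celastrol library carries another number in a second label, and with 2 numbers the pairing is not established. The replicate block gave 6542 calls over all genes for TGFB1 and 3665 for the interaction. SCX rests on 6 to 21 reads in a library and TCF21 on 15 to 181. The cause of these changes was not tested.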
